A study of Mus musculus with 12 samples.

Results

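Mouse mitochondrial DNA encodes 37 annotated genes, whose symbols begin with mt-, and they comprise 13 mRNAs, 2 ribosomal RNAs (rRNAs) and 22 transfer RNAs (tRNAs). The genes of the deposited liver count table were matched by Ensembl identifier to these symbols, which gave 15 of the 28036 genes in the table. All 13 mRNAs and both rRNAs were among them. The tRNAs matched 0 genes and are not analysed here. Genes became members by their symbols, although earlier results of these data were known when this set was chosen. All 15 had enough counts to be tested.

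All livers were from the inbred C57BL/6J mouse strain and fell into 4 groups of 3. EE livers came from mice in which a high-fat diet had set up a model of MASH (metabolic dysfunction-associated steatohepatitis, in which a fatty liver is also inflamed) and which then received oral Eleutheroside E, a glycoside of the lignan class from plants, at 100 mg/kg. Resmetirom livers came from the same diet model with oral resmetirom, which activates the beta form of the thyroid hormone receptor, at 3 mg/kg. MASH livers came from the diet model with vehicle, and control livers came from mice on normal chow with the same vehicle (0.5% CMC-Na). The model was set up over 8 weeks and dosing lasted 4 weeks. The labels number the livers of a group as replicates 1 to 3 and do not say how many animals each sample came from, so p-values measure the spread between these samples. Libraries were made from RNA captured with oligo(dT) beads, and their totals ran from 17297865 to 21793326 counts.

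Mitochondrial DNA is transcribed from both strands into long precursors, which are cut mostly at the tRNAs that lie between the genes, and most of the mRNAs then receive short poly(A) tails. Every one of the mRNAs codes for a subunit of the oxidative phosphorylation machinery in the inner membrane, whose other subunits come from nuclear genes. The rRNAs form the core of the mitochondrial ribosome that translates these mRNAs. In liver, oxidative phosphorylation is fed by fatty acid oxidation, and mitochondrial function is a common topic of fatty liver research.

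The sequences show how tightly these genes are packed and which of them share near-identical stretches with nuclear DNA. All were taken from GENCODE M21 transcripts on the genome build GRCm38, and positions count from 1 at the 5′ end of each gene. mt-Atp8 and mt-Atp6, which code for subunits of ATP synthase, overlap by 43 bases in different reading frames. The first line is the whole of mt-Atp8, the second the first 60 bases of mt-Atp6, and capitals mark the shared stretch.
mt-Atp8: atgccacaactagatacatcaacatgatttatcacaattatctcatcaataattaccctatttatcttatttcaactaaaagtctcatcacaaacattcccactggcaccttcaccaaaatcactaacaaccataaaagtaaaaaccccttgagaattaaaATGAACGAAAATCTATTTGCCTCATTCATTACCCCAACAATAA
mt-Atp6: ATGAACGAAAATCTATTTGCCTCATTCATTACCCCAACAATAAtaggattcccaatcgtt
mt-Nd4l and mt-Nd4, both of complex I, overlap by 7 bases, which are the last of mt-Nd4l and the first of mt-Nd4.
mt-Nd4l: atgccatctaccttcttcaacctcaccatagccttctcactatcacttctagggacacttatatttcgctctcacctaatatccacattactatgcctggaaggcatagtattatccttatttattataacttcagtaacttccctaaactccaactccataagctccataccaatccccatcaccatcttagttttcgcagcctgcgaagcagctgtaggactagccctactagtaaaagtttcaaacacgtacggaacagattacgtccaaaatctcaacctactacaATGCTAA
mt-Nd4: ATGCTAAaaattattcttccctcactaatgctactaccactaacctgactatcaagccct
Reads from the shared bases can belong to either gene of a pair, so the levels within each pair are not fully separate.

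Of the 13 mRNAs, 7 have a near-identical pseudogene on chromosome 1 of the nuclear genome that has its own entry in the count table (at least 99% identity over at least 95% of the copy). These copies are stretches of mitochondrial DNA that were inserted into a chromosome. Over the aligned bases, Gm28661 matched mt-Co2 at 681 of 681, Gm10925 matched mt-Atp6 at 678 of 678, Gm28437 matched mt-Co3 at 783 of 783, Gm10222 matched mt-Nd4l at 294 of 294, and Gm28439 matched mt-Nd4 at 876 of 876. Gm28438 matched mt-Nd3 at 344 of 345 with T3C as the substitution, and Gm29216 matched the part of mt-Co1 it covers at 482 of 483 with A1066T (the base of the mitochondrial gene first). Ends are shown because, in the pairs other than those of mt-Nd4 and mt-Co1, the annotated sequences of gene and copy differ only at their ends. Gm28439 matches bases 1 to 876 of the 1378 of mt-Nd4, and Gm29216 matches bases 1063 to 1545 of mt-Co1. The rest of these genes also separates them from their copies. Chromosome sequence beyond the annotated end of a copy was not compared. Capitals mark bases that lie beyond the annotated end of the copy or differ from it.
mt-Co2, last 30 bases: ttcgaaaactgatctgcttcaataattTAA
Gm28661, same end: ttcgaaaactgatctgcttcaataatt
mt-Atp6, last 30 bases: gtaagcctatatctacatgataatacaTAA
mt-Co3, last 30 bases: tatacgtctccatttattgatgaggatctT
mt-Nd3, first 23 bases: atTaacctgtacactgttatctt
Gm28438, first 23 bases: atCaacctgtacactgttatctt
mt-Co1, bases 1054 to 1086: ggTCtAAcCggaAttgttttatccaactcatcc
Gm29216, first 33 bases: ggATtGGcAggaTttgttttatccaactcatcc
In the last pair the capitals left of the A1066T position lie in the start of the copy, which the alignment left out. mt-Co3 ends on a bare T, and the poly(A) tail completes its stop codon, as it does for mt-Nd4 and mt-Cytb.

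The deposited values are expected counts, in which reads that match several genes are shared out between them, and for 5 of these mRNAs most of the shared counts stood under the nuclear name. Outside control 1, the copy held 98.2% to 99.8% of the summed counts of mt-Co2 and Gm28661, and 89.8% to 95.4% of those of mt-Co3 and Gm28437. The copy's share ran from 67.4% to 80.7% for mt-Nd4l, from 55.3% to 67.2% for mt-Nd3 and from 57.9% to 70.7% for mt-Atp6. For mt-Co1, whose copy covers less than its full length, it was 3.78% to 7.19%. The mt-Nd4 copy Gm28439 had 0 counts in 11 livers and 9718.39 in control 1, or 1.45% of the mt-Nd4 pair there. Levels of these 7 mRNAs are therefore uncertain as deposited, and they are given below both from their own counts and with the copy added. The other 6 mRNAs (mt-Nd1, mt-Nd2, mt-Atp8, mt-Nd5, mt-Nd6 and mt-Cytb) have no such copy.

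The 15 mitochondrial genes took 3.79%, 2.60% and 2.40% of the library in EE livers 1 to 3, and 3.80%, 3.95% and 3.21% in resmetirom livers 1 to 3. They took 3.96%, 3.48% and 3.73% in MASH livers 1 to 3, and 35.4%, 4.26% and 4.38% in control livers 1 to 3. Control 1 stood far apart, and the other 11 livers lay between 2.40% and 4.38%. With the copies added, control 1 reached 48.3%, while the other 11 livers ran from 3.49% to 6.02%. As a percent of the library, control 1 was 8.19 times the mean of control 2 and control 3. In a bulk tissue sample, more cells rich in mitochondria and more mitochondrial RNA per cell cannot be told apart. Whether the value of control 1 reflects the tissue or the making of its library was not tested.

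**Figure D1:**
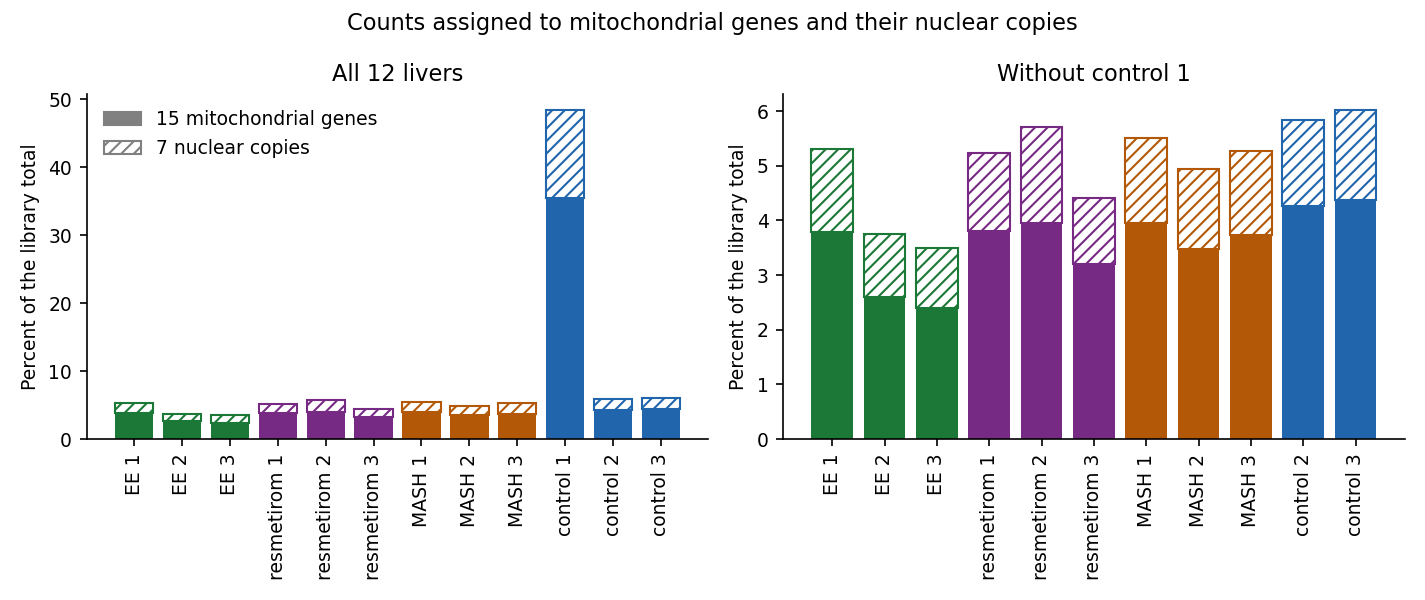
Percent of each library's counts (vertical axis) assigned to the 15 mitochondrial genes (filled bars) and to their 7 nuclear copies (hatched bars, stacked), for all 12 livers at left and for 11 livers on an enlarged axis at right. Control 1 reached 35.4% for the mitochondrial genes alone, against 2.40% to 4.38% in the other livers.

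Without control 1, control 2 and control 3 had the highest shares of the series at 4.26% and 4.38%, above the highest MASH liver at 3.96%. The share averaged 3.72% ± 0.24 in MASH livers and 14.7% ± 17.9 in control livers (SD, n = 3 each), and the control mean without control 1 was 4.32%. EE livers averaged 2.93% ± 0.751 and MASH livers 3.72% ± 0.24. EE 2 and EE 3 lay below every other liver and EE 1 lay within the MASH range, so the EE and MASH livers overlapped. Resmetirom livers averaged 3.65% ± 0.391 and overlapped both EE and MASH livers.

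Levels of single genes are given in CPM (a gene's counts relative to its library's total), after scaling each library by edgeR's TMM factor, which sets libraries to a common level over most genes. The scaling factor was 0.508 in control 1 and 0.663 in resmetirom 2, against 0.960 to 1.41 in the other 10 livers, so CPM values in these 2 livers are raised relative to their shares of the library. The share of the library taken by the members in resmetirom 2 (3.95%) lay within the range of the others, whereas most of its CPM values below are the highest outside control 1. The fold of control 1 over the mean of control 2 and control 3 ran from 10.1 (mt-Nd6) to 25.9 (mt-Nd3) over the 13 mRNAs in scaled CPM, with a median of 16.3. In CPM of the library totals, without the scaling, it ran from 4.60 to 11.9 with a median of 7.46. On the log2 scale of CPM the median difference was 4.03 for the mRNAs, and −0.10 over the 12122 genes with a mean of at least 1 CPM. Control 2 and control 3 differed by a median of 0.00 (range −0.80 to 0.56). Of 108 genes more than 8 times higher in control 1, 15 were the mitochondrial genes and 6 were their copies.

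Control 1 also differed in nuclear genes. The 10 Kupffer cell markers summed to 70.4 CPM in control 1, against 292 to 866 CPM in the other 11 livers, with all 10 lower than in the other controls. The nuclear-retained RNAs Malat1 and Neat1 summed to 343 CPM in control 1, against 22.3 to 89.8 CPM elsewhere. Hepatocyte markers (Alb, Apoa1 and 8 others) summed to 177909 CPM in control 1 and to 58269 to 111547 CPM elsewhere. They went both ways, with 6 of the 10 above both other controls and 3 below both, and a median log2 difference of 0.33. Markers of red blood cells summed to 3742 CPM in control 1, against 482 to 1678 CPM elsewhere, with 5 of 6 above both other controls. Markers of muscle reached at most 2.87 CPM in any liver and those of kidney 0.0512 CPM. The part of these differences in the high mitochondrial counts was not tested.

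Per kilobase of gene, the levels of the mRNAs spanned a wide range in the 11 livers without control 1. With copies added, mt-Co1, the catalytic subunit of cytochrome c oxidase (complex IV), was highest at 11156 ± 2642 CPM per kb (SD, n = 11). The other complex IV subunits mt-Co3 and mt-Co2 came next at 7672 ± 2120 and 7309 ± 2812, which differed from each other by less than their spread. mt-Atp6 of ATP synthase (complex V) followed at 4490 ± 1322 and mt-Cytb, the cytochrome b of complex III, at 3955 ± 1298. These also differed by less than their spread. Among complex I subunits, mt-Nd1 had 3034 ± 1138, mt-Nd2 2883 ± 1108 and mt-Nd4 2712 ± 980 CPM per kb, which did not differ beyond their spread. mt-Nd3 had 1716 ± 870, mt-Nd4l 842 ± 264, mt-Nd5 678 ± 173 and mt-Atp8 520 ± 156. mt-Nd6, the only mRNA of the 13 read from the opposite strand, was lowest at 95.8 ± 42.2. In human cells this transcript is known to lack a poly(A) tail.

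The order depended on the treatment of the copies. From their own counts, mt-Co2 was last of the 13 at 61.4 ± 45.6 CPM per kb and mt-Co3 stood 9th at 580 ± 285, while with copies added they ranked 3rd and 2nd. mt-Atp6 moved from 1652 ± 578 to 4490 ± 1322, mt-Nd3 from 611 ± 289 to 1716 ± 870 and mt-Nd4l from 220 ± 88.3 to 842 ± 264. The rRNAs, which carry only short tails, had 251 ± 94.6 (mt-Rnr1, small subunit) and 181 ± 72.2 CPM per kb (mt-Rnr2, large subunit) in these poly(A)-selected libraries.

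**Figure D2:**
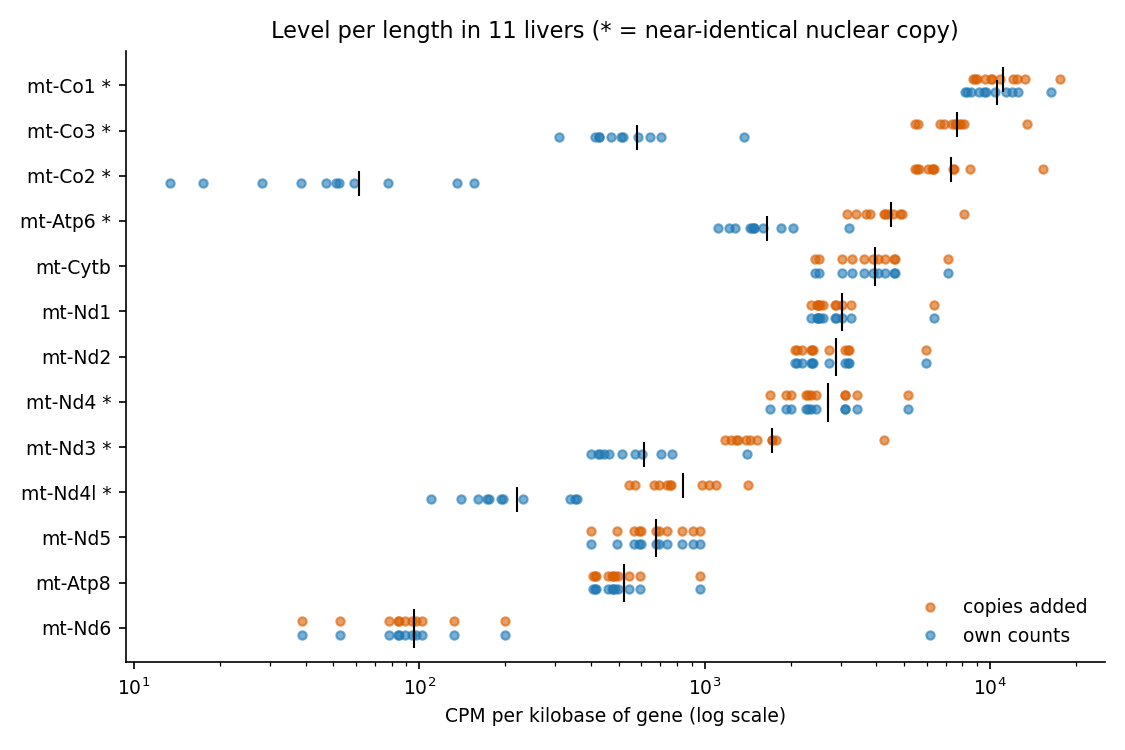
Level of each mRNA in CPM per kilobase of gene (horizontal log axis) in the 11 livers without control 1, with nuclear copies added (orange, upper points) and from its own counts (blue, lower points), where each point is 1 liver and the black ticks are means. mt-Co2 averages 7309 with its copy and 61.4 without it, and mt-Nd6 is lowest of the 6 mRNAs that have no copy.

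In 4 comparisons, no mitochondrial gene passed edgeR's quasi-likelihood test at an adjusted p below 0.05 over the 13988 genes tested. For MASH against control, 0 of 13 mRNAs and 0 of 2 rRNAs were called, beside 0.0143% of all genes. All 13 mRNAs had lower fitted levels in MASH livers with a median log2 fold change of −2.93 (range −3.37 to −2.57), against −0.02 over all genes. The median was −1.88 without scaling factors (0.37 over all genes), −1.82 by limma voom and −2.22 with a replicate block. Before adjustment 13 of 13 had p below 0.05, beside 9.23% of all genes, and adjusted p ran from 0.476 to 0.518. limma voom called 0 mRNAs, beside 0.00715% of all genes, and DESeq2, which called 0.622% of all genes, called mt-Nd6 alone (log2 fold change −2.87, adjusted p = 0.0118) and gave no adjusted p for 11 of the 13.

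That difference depended on control 1. Without it the median of the 13 mRNAs was −0.32 (range −1.27 to 0.35), 0 of 13 were called beside 0.028% of all genes, and adjusted p ran from 0.685 to 1. Before adjustment 1 of 13 had p below 0.05, beside 6.35% of all genes, and DESeq2 and limma voom also called 0 (0.518% and 0.035% of all genes). The lowest fold change of an mRNA without a copy was that of mt-Nd6 (−0.80 ± 0.28 SE, edgeR adjusted p = 0.685). In scaled CPM, 9 of 13 mRNAs were lower in every MASH liver than in every control liver, beside 9.41% of all tested genes. The same 9 were lower in every MASH liver than in control 2 and control 3, beside 20.9% of all genes. With copies added 11 of 13 were, and in unscaled CPM 7 of 13 were, against all controls (1.97% of all genes) and against control 2 and control 3 (12.1% of all genes). The members and copies took 48.3% of the library of control 1, which lowers the unscaled CPM of other genes there. The 1.97% is therefore a lowered background, and 24.8% of all genes were higher in every MASH liver than in every control liver. mt-Atp8 and mt-Nd3 overlapped on each of these scales.

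For EE against MASH, 0 of 13 mRNAs were called, beside 0.00715% of all genes. Their median log2 fold change was −0.04 (range −0.68 to 0.52), with 0 below p of 0.05 before adjustment beside 7.49% of all genes, and adjusted p ran from 0.866 to 0.999. limma voom called 0 (0% of all genes). DESeq2, which called 0.2% of all genes, gave an adjusted p only to mt-Co2 and mt-Nd6 and called neither. With the replicate number as a block, edgeR called 0 of 13 mRNAs and 5 genes in all, against 1 without the block. In scaled CPM all 13 overlapped between EE and MASH livers, while 16.7% of all genes were higher and 15.5% lower with no overlap. Without control 1 the median was −0.03 and 0 were called, beside 0.00699% of all genes, with 1 of 13 (mt-Nd6) below p of 0.05 before adjustment, beside 11.8% of all genes. In unscaled CPM, mt-Nd5 and mt-Nd6 were lower in every EE liver than in every MASH liver, which held for 41.2% of all genes on that scale, and with copies added mt-Atp6 and mt-Co3 were as well.

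For resmetirom against MASH, 0 of 13 mRNAs were called, beside 0.665% of all genes. The median log2 fold change was 0.35 (range −0.11 to 0.87) and became −0.05 with libraries scaled by their totals alone and −0.19 without resmetirom 2. Before adjustment 0 mRNAs had p below 0.05, beside 15% of all genes, adjusted p ran from 0.704 to 0.967, and limma voom called 0 (0.651% of all genes). DESeq2, which called 4.7% of all genes, gave no adjusted p for 11 of the 13 and called neither of the others. Without control 1 the adjusted p of mt-Nd3 was 0.201 (log2 fold change 0.86 ± 0.37), the lowest of the 13 and the only one with p below 0.05 before adjustment (22.7% of all genes), and 0 were called beside 3.01% of all genes. That value rested on resmetirom 2: with it left out as well, the highest log2 fold change of the 13 was 0.22. All 13 overlapped between the groups in scaled CPM, while 11.6% of all genes were higher and 12.3% lower with no overlap. In unscaled CPM, mt-Nd2 was higher and mt-Nd5 lower in every resmetirom liver than in every MASH liver, beside 4.48% and 13.9% of all genes in those directions.

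For EE against resmetirom, 0 of 13 mRNAs were called, beside 0.307% of all genes. The median log2 fold change was −0.40 (range −1.22 to 0.04), became −0.31 with libraries scaled by their totals alone and 0.09 without resmetirom 2. Before adjustment 0 had p below 0.05, beside 11.8% of all genes, adjusted p ran from 0.686 to 0.993, and limma voom called 0 (0.207% of all genes). Here too DESeq2, which called 2.93% of all genes, gave no adjusted p for 11 of the 13 and called neither of the others. Without control 1, 0 were called beside 0.965% of all genes, and 0 had p below 0.05 before adjustment beside 17.3%. All 13 overlapped in scaled CPM, while 8.7% of all genes were higher and 9.09% lower with no overlap. These comparisons share the MASH livers or the treated livers, so their values are not independent of each other. On simulated data for EE against MASH with 13709 genes run, edgeR called 10% of 2-fold and 92% of 4-fold changes. In the fit of that comparison with all livers, the log2 fold changes of the 13 mRNAs had a median SE of 0.88. The simulation gave every gene the same spread and set no liver apart as control 1 is. Its rates therefore cannot be carried over to the 13 mRNAs. Of these, the fit with all livers called 0 in MASH against control at a median log2 fold change of −2.93.

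**Figure D3:**
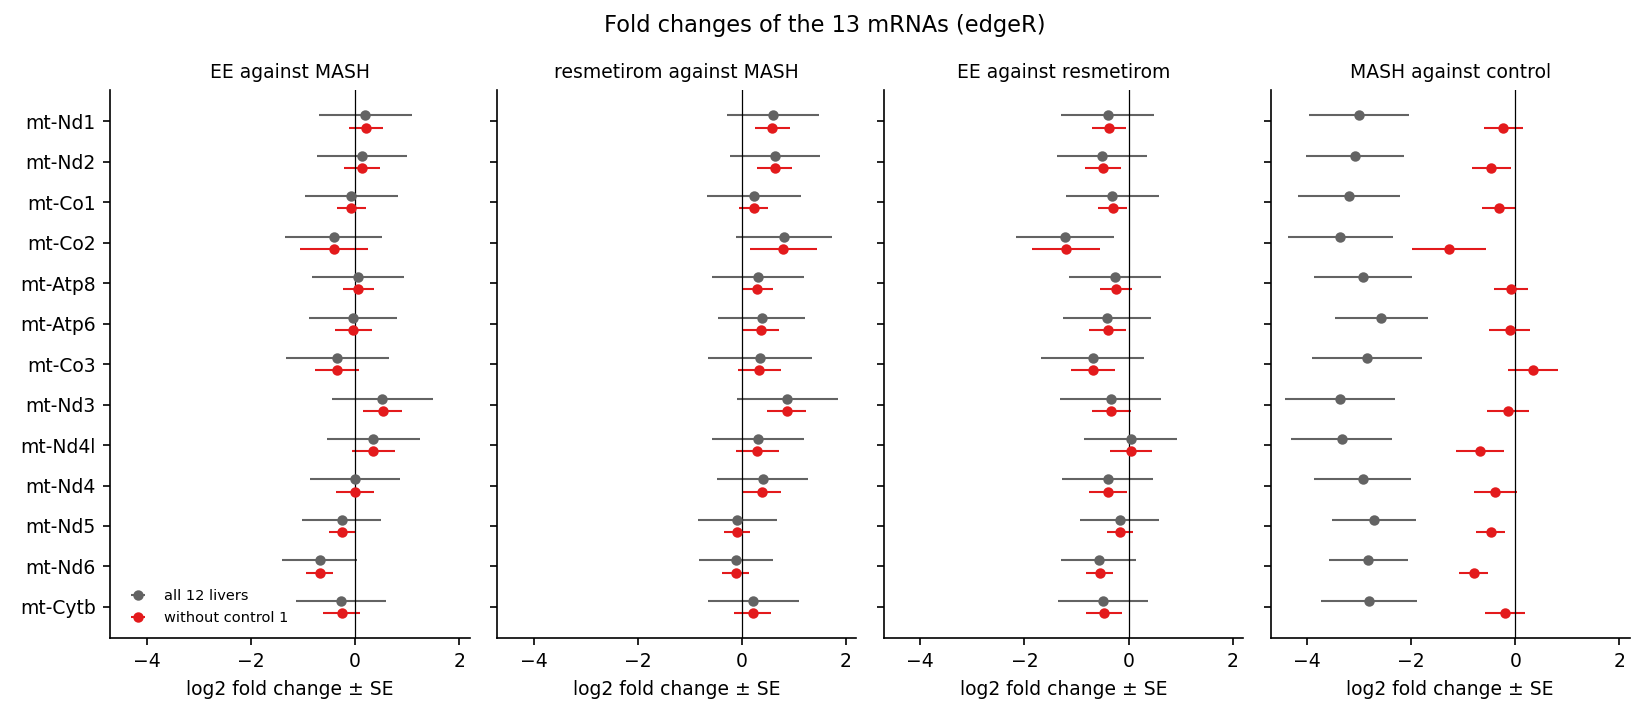
Log2 fold changes of the 13 mRNAs (points, with SE bars) from edgeR in the 4 comparisons, fitted with all 12 livers (grey) and without control 1 (red). Only the panel of MASH against control shifts between the fits, with medians of −2.93 and −0.32, while the SE bars shorten in every panel.

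Among the complex I subunits, which pass electrons from NADH to ubiquinone, mt-Nd1 had 3115, 2757 and 2379 CPM in EE livers, 2397, 6088 and 2383 in resmetirom livers, 2257, 2423 and 2494 in MASH livers, and 52105, 2734 and 2909 in control livers. Apart from control 1 and resmetirom 2, its levels stayed within a narrow band. mt-Nd5, a proton-pumping subunit near the end of the coding strand, had 1261, 1074 and 729 CPM in EE livers, 899, 1517 and 1029 in resmetirom livers, 1233, 1349 and 1094 in MASH livers, and 20711, 1663 and 1752 in control livers. Here control 2 and control 3 were above all MASH and treated livers, including resmetirom 2. In edgeR without control 1, its log2 fold change for MASH against control was −0.47 ± 0.28 (adjusted p = 0.878).

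mt-Nd6 had 44.2, 20.1 and 27.4 CPM in EE livers, 46.2, 49.0 and 40.8 in resmetirom livers, 53.0, 43.6 and 50.7 in MASH livers, and 870, 68.3 and 104 in control livers. The control livers were highest and did not overlap the MASH livers, and EE 1 lay within the MASH range. Its log2 fold change for EE against MASH was −0.68 ± 0.72 with all livers (adjusted p = 0.866) and −0.68 ± 0.26 without control 1 (adjusted p = 0.359). mt-Nd3 had 267, 245 and 160 CPM in EE livers, 154, 489 and 210 in resmetirom livers, 139, 150 and 179 in MASH livers, and 4477, 198 and 148 in control livers. Its groups overlapped in all 4 comparisons. mt-Nd2 (2159 to 6195 CPM), mt-Nd4 (2336 to 7141 CPM) and mt-Nd4l (32.6 to 106 CPM) spanned these ranges in the 11 livers without control 1, and in each of them the MASH livers lay below all control livers.

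mt-Cytb, the subunit of complex III that carries ubiquinol oxidation, had 5311, 2890 and 2785 CPM in EE livers, 3470, 8161 and 3767 in resmetirom livers, 4632, 4439 and 4151 in MASH livers, and 82652, 4892 and 5263 in control livers. EE 2 and EE 3 were the lowest livers, while EE 1 was above every MASH liver. Its log2 fold change for EE against MASH was −0.27 ± 0.87 (adjusted p = 0.96).

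In complex IV, mt-Co1 had 17531, 12813 and 12669 CPM in EE livers, 13314, 25293 and 14757 in resmetirom livers, 16124, 14198 and 14939 in MASH livers, and 376337, 19428 and 18466 in control livers. EE 2 and EE 3 were again the lowest livers and the MASH livers lay below all control livers. mt-Co2 with its copy had 5835, 3873 and 3788 CPM in EE livers, 3735, 10461 and 4310 in resmetirom livers, 4283, 4151 and 4360 in MASH livers, and 90033, 5119 and 5081 in control livers. From its own counts it never exceeded 106 CPM outside control 1. The largest fold change among the treated groups was that of mt-Co2 from its own counts, −1.22 ± 0.94 for EE against resmetirom (adjusted p = 0.686), and with the copy added it was −0.46 ± 0.89. mt-Co3 with its copy ran from 4283 to 10571 CPM outside control 1, and its log2 fold change for MASH against control without control 1 was 0.35 ± 0.48 from its own counts and −0.08 ± 0.36 with the copy added.

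In complex V, mt-Atp6 with its copy had 3301, 2582 and 2150 CPM in EE livers, 2319, 5510 and 2511 in resmetirom livers, 2931, 2988 and 2885 in MASH livers, and 48483, 3350 and 3105 in control livers. With the copy added its MASH livers lay below all control livers, and from its own counts the groups overlapped. mt-Atp8, which codes for a small membrane subunit, ran from 82.8 to 196 CPM outside control 1 and stood at 2004 CPM in control 1.

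The rRNAs showed a different spread between groups from the mRNAs. mt-Rnr1 had 273, 184 and 233 CPM in EE livers, 222, 453 and 155 in resmetirom livers, 161, 166 and 181 in MASH livers, and 4422, 328 and 281 in control livers. mt-Rnr2 had 346, 222 and 273 CPM in EE livers, 257, 558 and 159 in resmetirom livers, 218, 189 and 210 in MASH livers, and 4564, 390 and 323 in control livers. In both, every MASH liver was below every control liver and every EE liver was above every MASH liver, beside 9.41% and 16.7% of all genes in those directions. In unscaled CPM, MASH livers stayed below control livers, but EE and MASH livers overlapped, with 271, 179 and 223 for mt-Rnr1 in EE livers, against 197, 191 and 221 in MASH livers. Neither passed edgeR: without control 1 the log2 fold changes of mt-Rnr1 were −0.84 ± 0.36 for MASH against control (adjusted p = 0.772) and 0.45 ± 0.33 for EE against MASH (adjusted p = 0.598). Per 100 mRNA counts there were 1.65, 1.54 and 2.07 rRNA counts in EE livers, 1.81, 1.72 and 1.06 in resmetirom livers, 1.19, 1.19 and 1.30 in MASH livers, and 1.31, 1.87 and 1.60 in control livers. This ratio does not depend on library scaling, and the MASH livers were below all EE and all control livers in it.

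The make-up of the mRNA pool was measured as each mRNA's percent of the summed counts of the 13, which does not depend on how much of a library they take. With copies added, the composition in control 1 lay inside the range of the other 11 livers for 10 of 13 mRNAs. mt-Co1 was above it at 39.9% (range elsewhere 32.0% to 38.7%), and mt-Atp6 (5.15%, elsewhere 5.94% to 7.04%) and mt-Co2 (9.56%, elsewhere 9.59% to 12.3%) were below it. From their own counts it lay inside for 11 of 13. The proportions in control 1 were near those elsewhere while its summed level was far above them.

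With copies added, the most even shares over the 11 livers were those of mt-Atp6 and mt-Co1, with coefficients of variation of 5.22% and 5.27%. The most uneven were mt-Nd6 (38.3%), mt-Nd3 (23.7%) and mt-Nd5 (18.2%). From own counts mt-Co2 was the most uneven (53.0%), then mt-Nd6 (36.7%) and mt-Co3 (27.0%), and mt-Atp6 stood at 10.8%. By complex and with copies added, the 3 mRNAs of complex IV took 56.8% to 62.9% of the pool, the 7 of complex I took 22.4% to 26.9%, mt-Cytb took 7.52% to 10.5% and the 2 of complex V took 6.13% to 7.28%. Per 1000 counts of the other mRNAs (own counts), mt-Nd6 had 1.18, 0.762 and 1.12 in EE livers, 1.75, 0.837 and 1.37 in resmetirom livers, 1.66, 1.46 and 1.68 in MASH livers, and 1.27, 1.78 and 2.74 in control livers. Every EE liver was below every MASH liver in this ratio, with group means of 1.02 ± 0.226 and 1.60 ± 0.121.

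Ratios between genes along the same strand also differed between livers. mt-Nd1, near the start of the coding order, and mt-Nd5, near its end, both lack a copy. The ratio of mt-Nd1 to mt-Nd5 counts was 2.47, 2.57 and 3.26 in EE livers, 2.67, 4.01 and 2.32 in resmetirom livers, 1.83, 1.80 and 2.28 in MASH livers, and 2.52, 1.64 and 1.66 in control livers. All EE and resmetirom livers were above all MASH livers. In the share of mt-Nd3 with its copy, EE livers had 1.13%, 1.62% and 1.35%, resmetirom livers 1.25%, 1.74% and 1.46%, MASH livers 0.920%, 1.01% and 1.24%, and control livers 1.06%, 0.950% and 0.861%. Resmetirom livers lay just above all MASH livers in it, and EE 1 overlapped MASH 3. From own counts this turned round: EE livers had 0.712%, 0.927% and 0.655%, resmetirom livers 0.584%, 0.834% and 0.708%, and MASH livers 0.434%, 0.502% and 0.593%, so EE lay above all MASH livers and resmetirom 1 overlapped MASH 3. These ratios were chosen among several after their values were seen and were given no test.

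**Figure D4:**
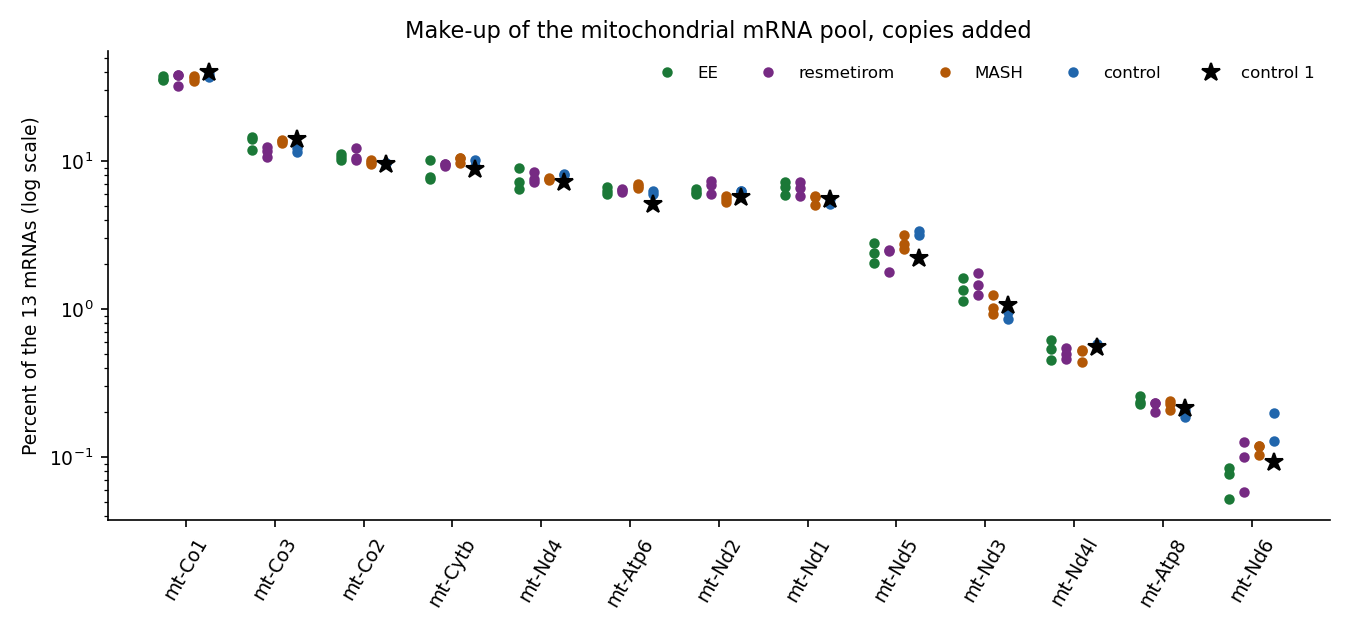
Percent of the summed counts of the 13 mRNAs, copies added (vertical log axis), taken by each mRNA in each liver, with 1 point per liver coloured by group and control 1 drawn as a star. Control 1 lies inside the range of the other 11 livers for 10 of 13 mRNAs, and mt-Nd6 is the most spread.

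The mRNAs moved together over livers. Over all 12 livers, Pearson's r of log2 CPM had a median of 0.96 over the 78 pairs of mRNAs, a value set largely by control 1. Over the 11 livers without it the median was 0.76, from −0.20 (mt-Nd3 and mt-Nd6) to 0.97 (mt-Co1 and mt-Nd4), with 66 pairs above 0.5. Leaving out resmetirom 2 as well gave a median of 0.63. The livers share the scaling factor of their library in every gene, so part of any such correlation comes with the scale, and these values are a description over 11 livers.

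Adding the copies raised the median over 11 livers to 0.85. The change was largest for the genes whose counts stood mainly under the copy: against the sum of the other 12 mRNAs, mt-Co2 had r of 0.84 from its own counts and 0.97 with the copy added, and mt-Co3 0.72 and 0.90. Against the summed 6 mRNAs that have no copy, the nuclear entries themselves had r of 0.97 (Gm28661), 0.96 (Gm10222), 0.94 (Gm10925), 0.89 (Gm28437), 0.80 (Gm29216) and 0.72 (Gm28438). mt-Nd4 followed the other mRNAs most closely, with r of 0.99 from its own counts, and 0.98 without control 2 and resmetirom 2, the farthest livers. mt-Nd6 (0.52) and mt-Nd3 (0.69) had the lowest r. For mt-Nd3 Spearman's rho was 0.16 and r over the 9 remaining livers 0.09, so that its relation rested on those livers. For mt-Nd6 rho was 0.73 and r over the 9 livers 0.74, so that its low place rested on them.

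**Figure D5:**
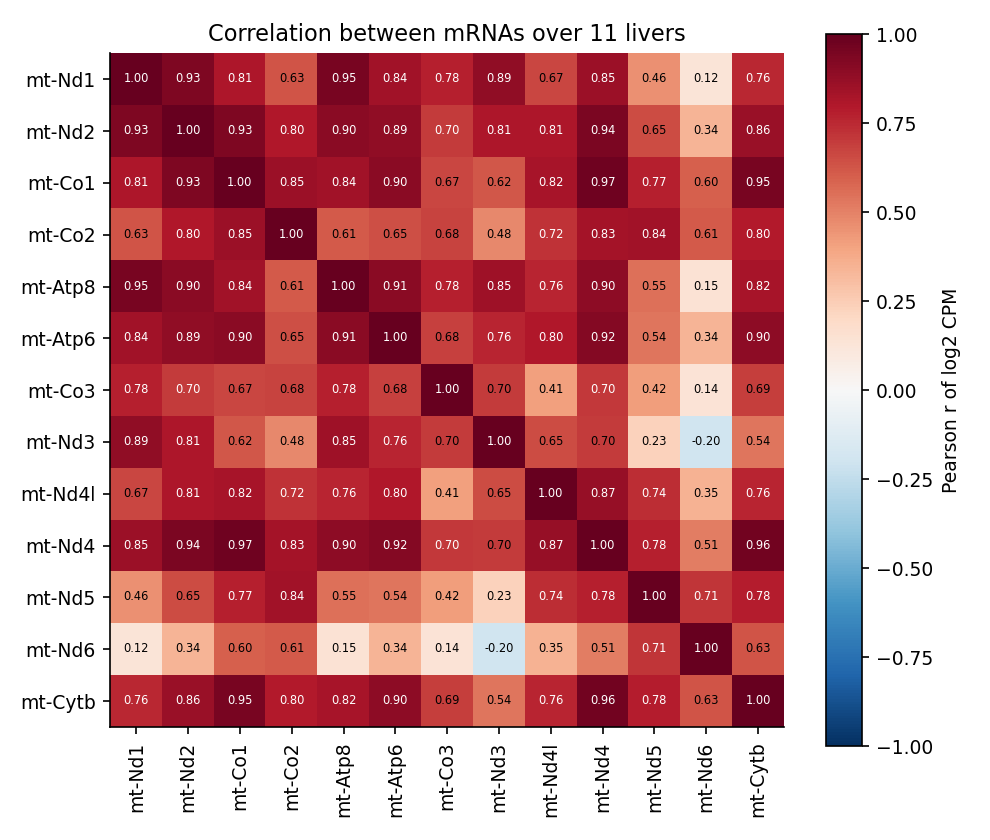
Pearson's r of log2 CPM (colour and printed value) between each pair of the 13 mRNAs over the 11 livers without control 1, in the order of the genes on mitochondrial DNA. mt-Nd6 forms the palest line, reaching −0.20 with mt-Nd3, and mt-Co1 and mt-Nd4 reach 0.97.

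Nuclear genes for the same complexes were also measured, from lists of known subunits. Of 76 nuclear subunits, 0 were called in each of the 4 comparisons (smallest adjusted p 0.215 with all livers and 0.0893 without control 1), and the lists for the separate complexes, mitochondrial transcription, RNA processing, the mitochondrial ribosome, biogenesis regulators and protein quality control had 0 called as well, with and without control 1. In MASH against control, 14 of the 76 had positive fold changes, beside 48.4% of all genes, with a median of −0.43, and without control 1 the median was −0.01 with 33 positive, beside 50.7%. In resmetirom against MASH 70 of 76 were positive with a median of 0.54, while 54.2% of all genes were positive, and in EE against MASH 70 were positive with a median of 0.24, beside 47.6% of all genes. In EE against resmetirom 6 were positive with a median of −0.29, beside 42.4% of all genes. Summed, the 76 had 8868, 19382 and 12855 CPM in resmetirom livers, 11545, 11558 and 11985 in EE livers, and 9905, 9800 and 10202 in MASH livers. Resmetirom 1 thus lay below every MASH liver, and the highest value was that of resmetirom 2, whose scaling factor was 0.663. The factors were 0.993, 0.969 and 0.960 in EE livers and 1.22, 1.15 and 1.22 in MASH livers. Scaled CPM is thus raised in EE livers relative to MASH livers. Without scaling factors 17% of all genes were positive in EE against MASH, and the 76 were not counted on that scale. Cyc1, the cytochrome c1 of complex III, had the smallest p among the 76 in resmetirom against MASH (log2 fold change 0.79 ± 0.28, adjusted p = 0.215). The nuclear complex IV subunits summed to 4163 CPM in control 1, against 1469 and 1408 CPM in control 2 and control 3. In the same order, complex I summed to 5545 CPM against 2630 and 2544, and complex III to 2757 against 1387 and 1348. Complex V, which also has mitochondrially encoded subunits, was not raised in its sum, at 3846 CPM against 3847 and 3727. Of its 15 nuclear genes, 10 were above both other controls and 5 below both, with a median log2 difference of 0.42. Complex II, which has no mitochondrially encoded subunit, summed to 707 CPM, against 999 and 994.

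Outside control 1, the summed level of the mitochondrial mRNAs had r of 0.66 with nuclear complex I, 0.73 with complex IV and 0.51 with complex V over 11 livers, but −0.04, 0.01 and −0.20 without control 2 and resmetirom 2, so these relations rested on those livers. Tfam, the packaging protein and transcription factor of mitochondrial DNA, had a log2 fold change of −0.48 ± 0.16 in resmetirom against MASH (adjusted p = 0.199), the smallest p of its list there. Trub2, a pseudouridine synthase of mitochondrial RNA, had 0.79 ± 0.22 in MASH against control with all livers (adjusted p = 0.486). Without control 1 the smallest edgeR adjusted p of the RNA processing list there was 0.625. Malat1, a nuclear-retained RNA, had −1.85 ± 0.40 in MASH against control (adjusted p = 0.243). The median of Malat1 and Neat1 in that comparison was −1.84 with all livers and −0.46 without control 1, so it depended on that liver.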

How the data were processed

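The authors deposited 1 table of expected counts per Ensembl gene for 12 libraries, not scaled to a common total. Per the labels' protocols, mRNA was captured with oligo(dT) beads and stranded libraries were read as 150-base pairs. Per the submitters' processing notes, fastp and the genome build GRCm39 were used, without a version for fastp. Not given in the sources used here are the aligner, the counting tool, its annotation and its use of strand. Between 91.5% and 93.3% of a column's values are whole, and counts were rounded for the tests.

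Symbols, lengths and transcript sequences came from GENCODE M21 (GRCm38), so no coordinates were used. Copies were found with BLAST 2.17.0. Tests used edgeR 4.0.16 in R 4.3.3 (its filterByExpr and TMM functions with default settings, then 1 robust quasi-likelihood fit over the 12 libraries) with Benjamini-Hochberg adjustment over 13988 genes. The SE of a fold change is its size over the square root of F. DESeq2 1.42.0 and limma voom (3.58.1) were alternatives, and the fits were tested on simulated data with 200 changed genes. The same fit was also made without control 1. The labels do not tie replicate numbers to a shared batch. Deviations of same-numbered EE and MASH livers correlated at 0.19, 0.16 and 0.15, each above 0.1, which no other pair of groups reached in all numbers, so the blocked values stand beside EE against MASH. The summed shares, ratios and correlations were given no test.

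All 15 mitochondrial genes are named. Other genes named are the copies and list members with the smallest p. The members and lists were chosen with earlier results of these data known.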

Additional observations from a re-analysis of the deposited data

How the results depend on the processing

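Over 27 other settings per comparison, 1620 results for single mitochondrial genes gave 1 on the other side of the threshold (mt-Nd6 in MASH against control by DESeq2), and 84 uncalled fold changes had another sign (5, 23, 25 and 31 in the 4 comparisons in the order of the values below). The order is MASH against control, EE against MASH, resmetirom against MASH and EE against resmetirom. DESeq2 called 1 mitochondrial mRNA in MASH against control and 87, 28, 657 and 410 of all genes. Without a filter 34, 8, 243 and 176 genes were called, and with only the compared groups 0, 746, 0 and 3. limma voom called 1 and 0 genes in the first 2 comparisons. Without scaling factors 1, 38 and 12 genes were called in all comparisons but EE against MASH, and the median log2 fold change of the mRNAs in resmetirom against MASH was −0.05.

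Chosen after the data were seen, leaving out both control 1 and resmetirom 2 gave 9, 67, 467 and 417 genes and medians of −0.32 (MASH against control), −0.18 (resmetirom against MASH) and 0.07 (EE against resmetirom), and a median r between mRNAs of 0.63. Control 1 left out gave, with copies added, 4, 431 and 138 genes (not EE against MASH) and a median of −0.25 in MASH against control. With DESeq2 it gave 74, 206, 1453 and 877 genes and −0.33, and with limma voom 5, 0, 412 and 80 genes and −0.32. With control 1 left out and a replicate block, 10, 515 and 169 genes were called in the last 3 comparisons and the median was −0.33.

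With single livers left out, the genes called ran from 0 to 6, 0 to 1, 1 (without MASH 2) to 431 (without control 1) and 7 (without EE 3) to 138 (without control 1). The medians ran from −3.42 to −0.32, −0.34 to 0.08, −0.19 to 0.63 and −0.67 to 0.09, and the differences in the percent of the library from −16.2 to −0.598, −1.22 to −0.528, −0.221 to 0.152 and −1.15 to −0.458. No mitochondrial mRNA was called in any of these by edgeR. Without control 1 the median r was 0.76. Against the counts outside the members and the 20 most abundant other genes, the percent differed by −29.4 (MASH against control), 0.643 (resmetirom against MASH) and −1.36 (EE against resmetirom). mt-Co1 took 49.3% of the pool from own counts, 39.3% per length and 36.8% with copies added.

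Over all groups, deviations of same-numbered livers correlated from −0.34 to 0.26, above 0.1 in 8 of 18 pairs, and above 0.1 in every pair only between EE and MASH. A replicate block called 0 mitochondrial mRNAs, and 5 genes in EE against MASH and 19 in EE against resmetirom. Where a value moved, the cause was not tested. On data simulated for EE against MASH with 3 livers a group, edgeR missed most 2-fold changes. Low counts limit the precision for genes such as mt-Co2 from its own counts.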

Other observations

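Copies of mitochondrial genes that differ more from their source took few counts. Gm13340, a full-length copy of mt-Co1 on chromosome 2, had 14.22 counts in control 1 and at most 1.96 in any other liver, and Gm13341, a copy of mt-Co2 on the same chromosome, had 21.71 in control 1 and at most 4.70 elsewhere. Gm29216, the copy of part of mt-Co1, went the other way from the remaining near-identical copies, with 287.23 counts in control 1 and 13386.64 to 26273.75 in the other 11 livers, although mt-Co1 itself was highest in control 1.

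Of the lists other than the respiratory chain, the mitochondrial stress and protein quality control genes summed to 1259 CPM in control 1, below the other 11 livers (1755 to 2122 CPM), and the biogenesis regulators to 225 CPM, within their range (213 to 309 CPM). The mitochondrial ribosomal proteins summed to 2546 CPM in control 1, within the range elsewhere (1590 to 3084 CPM). B cell markers summed to 9.44 CPM in control 1 and to 0.870 to 4.42 CPM elsewhere, and endothelial markers to 111 CPM, against 145 to 304 CPM.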
